A study of Homo sapiens with 6 samples.

Results

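The proteasome is the barrel-shaped protease that degrades ubiquitin-tagged proteins in the cytosol and nucleus. Its members were taken from the deposited count table as every gene whose symbol is PSM, a letter from A to G and a number, and whose description does not name a pseudogene. That rule gave 48 of 27685 genes. The set holds the subunits of the 20S core, the subunits of the 19S cap, the activators, the inhibitor PSMF1 and the chaperones that help the core and the cap to assemble. Of the 48 genes, 46 passed the filter on low counts and were tested.

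Each group was 3 RNA sequencing libraries of Caco-2 cells, an established colorectal cancer line that takes on features of absorptive intestinal cells. The first group carries hFABP1as, a construct antisense to FABP1, whose product carries fatty acids in the cytosol, and its genotype label is a knockdown. The second is the mock-transfected control with the vector pcDNA3, genotype label WT. Neither the number of transfected lines or clones nor whether the libraries of a group were separate cultures is stated, so the p-values rest on library-to-library spread that may be technical, and a line difference cannot be told apart from an effect of the construct. Libraries are named by the numbers 2, 3 and 4 in the table's headers.

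Total counts ran between 41768687 and 55153051 in the antisense-labelled libraries and between 40351394 and 57979037 in the vector control libraries. FABP1 itself averaged 134 ± 12.4 CPM (read counts relative to the scaled size of their library) in the antisense-labelled libraries and 120 ± 18.0 CPM in the vector control (SD, n = 3 each). It was not called different by the quasi-likelihood test of edgeR (log2 fold change 0.16, SE 0.12, adjusted p = 0.268), so the group is called by its label throughout. Strand use in counting is not stated, so reads from the construct and from the gene itself cannot be told apart in this count. All 8 epithelial and intestinal markers were detected, with a summed level of 15658 to 18587 CPM in the antisense-labelled libraries and 14324 to 17679 CPM in the vector control. Within a group no library pair was a copy of another: their counts scattered beyond sampling error, with a chi-square of 13.98 to 40.1 for each degree of freedom.

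The 20S core is a stack of rings in which alpha subunits form the gate and beta subunits carry the proteolytic sites. The constitutive sites are on PSMB5 (chymotrypsin-like), PSMB6 (caspase-like) and PSMB7 (trypsin-like). Under interferon, and constantly in immune cells, PSMB8, PSMB9 and PSMB10 take the places of PSMB5, PSMB6 and PSMB7 in newly made cores, the immunoproteasomes, whose peptides suit MHC class I presentation. The 19S cap recognises ubiquitin chains, removes them and unfolds the substrate with a ring of ATPases. In human cells the transcription factor NRF1 (NFE2L1) raises proteasome subunit genes together when proteasome activity is limiting. In the intestine, as in other epithelia, the immunoproteasome subunits are known to rise in inflammation.

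Most proteasome genes had small fold changes, and those that passed the test fell more often than they rose. Of the 46 tested members, 7 rose and 15 fell at a threshold of 0.05 on the adjusted p (quasi-likelihood test of edgeR, adjusted by Benjamini-Hochberg over the 14640 tested genes). The 22 called members are 47.8% of those tested, against a background of 55.0% of all tested genes. By direction, 15.2% of members rose against 27.7% of all genes, and 32.6% fell against 27.3%. A change of at least 1.5-fold that passed the test was found in 2 members, PSMB9 and PSMD9, whereas 27.2% of all tested genes reached it. All tested genes were not matched to the members for expression level. The median log2 fold change was -0.08 over the members and 0.01 over all tested genes. The groups did not overlap in 26 members (56.5%), against 62.7% of all tested genes. Summed over all members, the level was 8261, 7692 and 7653 CPM in antisense-labelled libraries 2, 3 and 4, against 8787, 8127 and 8798 CPM in vector control libraries 2, 3 and 4. Those sums overlapped between the groups. In a bulk sample, fewer cells of a kind and less RNA per cell cannot be told apart.

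**Figure D1:**
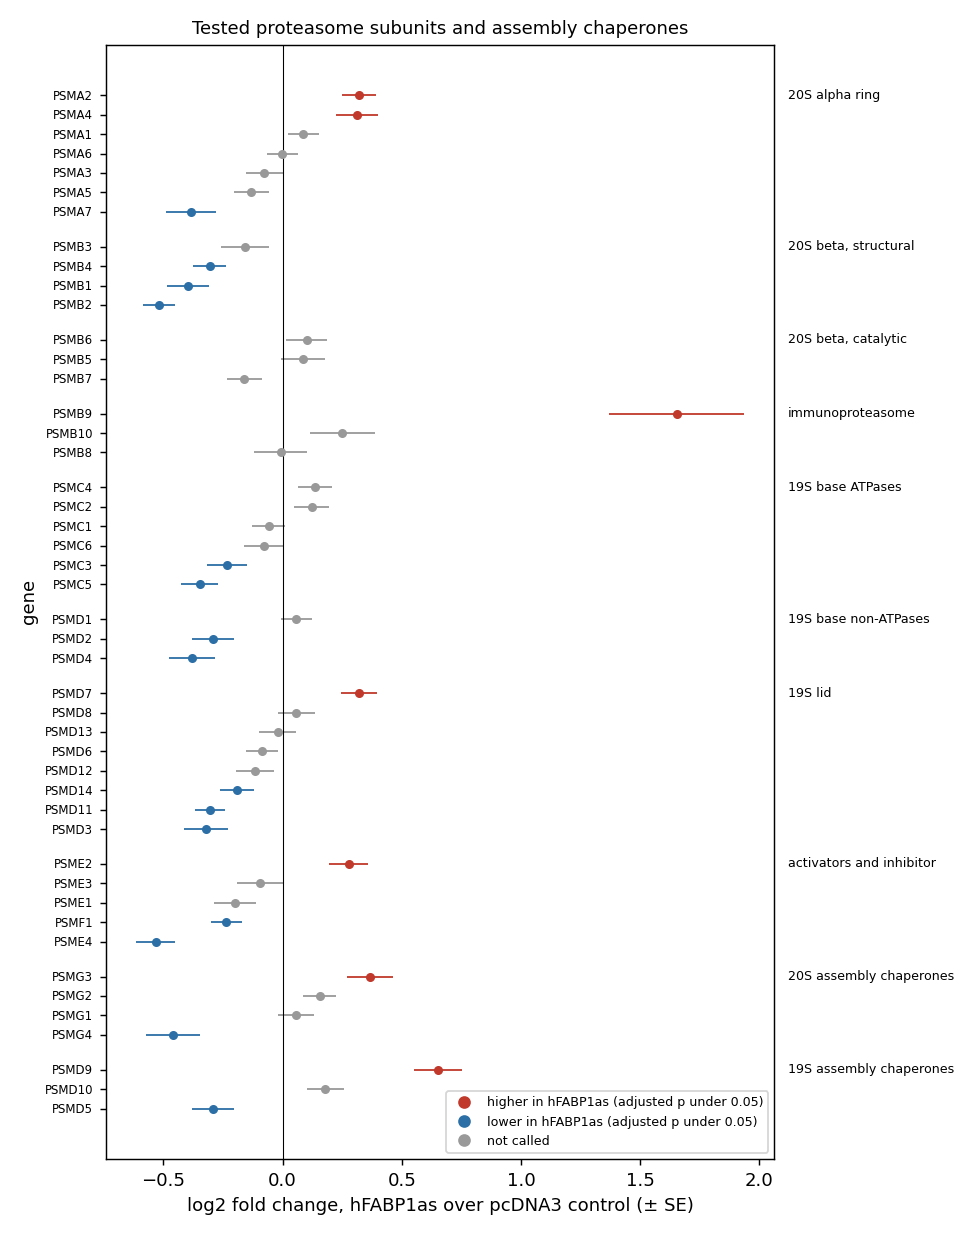
Log2 fold change of each tested member, antisense-labelled over vector control, with its standard error, grouped by role and ordered by value within a role. PSMB9 lies at 1.65 and PSMD9 at 0.65, while the members called lower lie between -0.53 and -0.19.

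The alpha ring, which gates the core and is made of PSMA1 to PSMA7, moved in both directions. PSMA2 and PSMA4 rose, PSMA7 fell and the other 4 did not pass. PSMA2 had 195.6, 182.5 and 194.6 CPM in the antisense-labelled libraries, against 162, 143.5 and 153 CPM in the vector control libraries (log2 fold change 0.32, SE 0.07, adjusted p = 0.00463 by edgeR). All 3 antisense-labelled libraries were above all 3 vector control libraries. PSMA4 had 216, 206 and 231 CPM in the antisense-labelled libraries, against 193.5, 174 and 159 CPM in the vector control (0.31, SE 0.09). Its groups did not overlap, but its call was lost without antisense-labelled library 4 (largest adjusted p 0.0510 over the alternatives). PSMA7, the most abundant alpha subunit here per transcript length, had 545, 519 and 462 CPM in the antisense-labelled libraries, against 708, 563 and 722 CPM in the vector control (-0.38, SE 0.10). Every antisense-labelled library was below the lowest vector control library, number 3, and the call was lost without vector control library 2 (largest adjusted p 0.0513 over the alternatives). PSMA1, PSMA3, PSMA5 and PSMA6 had log2 fold changes between -0.13 and 0.09. PSMA8, an alpha subunit of the testis, had 0 counts in every library, which allows a level of up to 0.0211 CPM over the antisense-labelled group and 0.0212 CPM over the vector control group (3 counts, for counting error only).

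Of the 4 beta subunits without a proteolytic site, 3 fell (75.0%, against 27.3% of all tested genes). The genes around PSMB1, PSMB2, PSMB3 and PSMB4 in gene order had median log2 fold changes of -0.27, -0.45, -0.21 and -0.36. PSMB2 had 166, 150.5 and 155 CPM in the antisense-labelled libraries, against 223, 221 and 231 CPM in the vector control (-0.52, SE 0.07, adjusted p = 0.000238 by edgeR). PSMB1 had 194, 181 and 186 CPM in the antisense-labelled libraries and 269.8, 216 and 252 CPM in the vector control (-0.40, SE 0.09). PSMB4 averaged 231 ± 11.8 CPM in the antisense-labelled libraries and 285 ± 13.3 CPM in the vector control (SD, n = 3 each), a log2 fold change of -0.31 (SE 0.07). In none of these genes did the groups overlap, and each kept its call in every alternative tried. PSMB3 did not pass (-0.16, SE 0.10), except in the fit without vector control library 3.

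None of the constitutive catalytic subunits passed the test. PSMB5 had 206, 187 and 180.0 CPM in the antisense-labelled libraries, against 182, 160.5 and 198 CPM in the vector control (0.09, 95% interval -0.12 to 0.30, adjusted p = 0.456 by edgeR). PSMB6 had 174, 163 and 155 CPM in the antisense-labelled libraries, against 155, 137.5 and 166 CPM in the vector control (0.10, 95% interval -0.09 to 0.30). Both genes overlapped between the groups, with vector control library 3 the lowest of the 6. PSMB7 had 254, 234 and 228 CPM in the antisense-labelled libraries, against 283, 249 and 267 CPM in the vector control (-0.16, 95% interval -0.33 to 0.01). Its groups overlapped by antisense-labelled library 2 alone, and it passed as a fall only without vector control library 3.

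Among the immunoproteasome subunits, PSMB9 rose, at a very low level, and the other two did not pass. PSMB9 had 1.72, 1.34 and 1.40 CPM in antisense-labelled libraries 2, 3 and 4 (71, 60 and 79 counts), against 0.608, 0.392 and 0.396 CPM in vector control libraries 2, 3 and 4 (35, 16 and 17 counts). Every antisense-labelled library was above every vector control library. On the log2 scale it was higher by 1.65 (SE 0.28, 95% interval 1.01 to 2.295, adjusted p = 0.00116 by edgeR), the largest of all tested members. PSMB8 had 10.9, 10.3 and 9.83 CPM in the antisense-labelled libraries, against 10.7, 8.92 and 11.5 CPM in the vector control (-0.01, 95% interval -0.26 to 0.25). PSMB10 had 32.2, 31.7 and 26.2 CPM in the antisense-labelled libraries, against 27.5, 20.2 and 27.8 CPM in the vector control (0.25, 95% interval -0.06 to 0.56, adjusted p = 0.150 by edgeR). Both overlapped between the groups. PSMB11, the beta subunit of the thymus, had 0 counts in every library, under the same limit as PSMA8.

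Per kilobase of transcript, the constitutive catalytic subunits stood far above the immunoproteasome ones in both groups. PSMB5, PSMB6 and PSMB7 averaged 171, 190 and 243 CPM per kilobase in the antisense-labelled libraries and 161, 177 and 272 in the vector control. PSMB8, PSMB9 and PSMB10 averaged 8.34, 1.91 and 24.7 CPM per kilobase in the antisense-labelled libraries and 8.38, 0.595 and 20.7 in the vector control. As a share of its pair, PSMB10 was 9.19 ± 0.676% of PSMB10 plus PSMB7 in the antisense-labelled libraries and 7.04 ± 0.830% in the vector control (SD, n = 3 each, per kilobase). For PSMB8 with PSMB5 the share was 4.66 ± 0.0966% in the antisense-labelled libraries and 4.94 ± 0.149% in the vector control. PSMB9 was 0.989 ± 0.0902% of PSMB9 plus PSMB6 in the antisense-labelled libraries and 0.335 ± 0.0867% in the vector control. Immunoproteasome RNA thus stayed under 10% of its pair in all libraries.

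**Figure D2:**
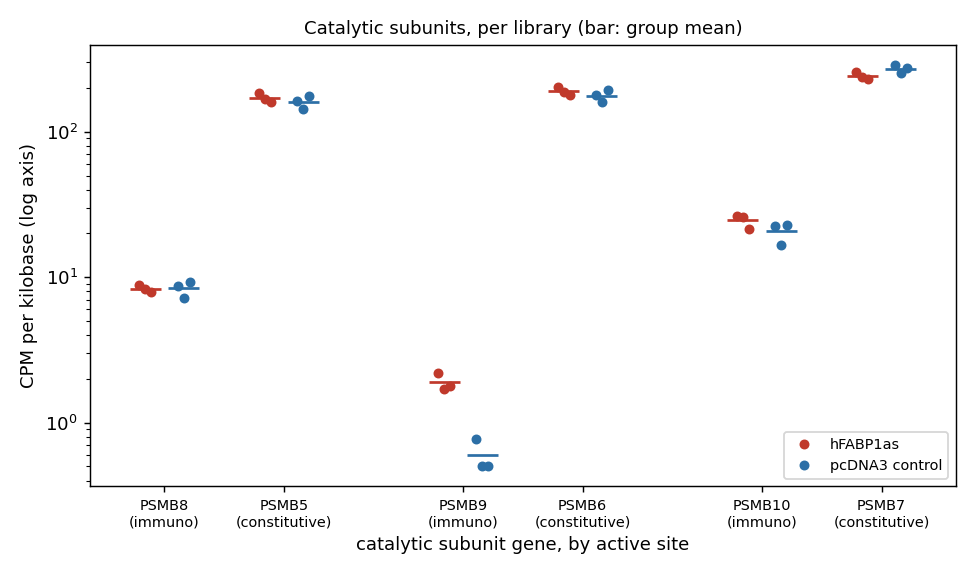
CPM per kilobase of transcript (log axis) of the catalytic subunits in each library, each immunoproteasome subunit beside the constitutive subunit it replaces, with antisense-labelled libraries left of vector control and bars at group means. Only PSMB9 of these 6 genes has all its antisense-labelled libraries above all its vector control libraries.

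Set against its constitutive counterpart within the same library, where library scaling cancels, the immunoproteasome subunits differed between the groups by unlike amounts. The log2 ratio of PSMB9 to PSMB6 was -6.66, -6.92 and -6.79 in the antisense-labelled libraries, against -7.99, -8.46 and -8.71 in the vector control, a difference of 1.60. PSMB10 over PSMB7 was -2.98, -2.88 and -3.12 in the antisense-labelled libraries, against -3.36, -3.62 and -3.26 in the vector control, a difference of 0.42. PSMB8 over PSMB5 was -4.24, -4.19 and -4.19 in the antisense-labelled libraries, against -4.08, -4.17 and -4.11 in the vector control, a difference of -0.09. Of the genes in these pairs, only PSMB9 passed the edgeR test by itself. In each of the 3 pairs the groups did not overlap. Among all tested genes taken singly, 62.7% did not overlap, and no such share was taken over other gene pairs. Each pair gave p = 0.10 by a two-sided exact permutation test over the 6 libraries (0.10 adjusted over the 3 pairs). That is the smallest value that 3 against 3 libraries allow, so no pair could pass 0.05.

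PSMB9 lies head to head with TAP1, a subunit of the peptide transporter that feeds MHC class I, on chromosome 6, with 488 bases between their nearest start sites in RefSeq (GRCh38.p14). TAP1 had 10.52, 11.0 and 8.67 CPM in the antisense-labelled libraries, against 12.8, 11.5 and 14.4 CPM in the vector control (-0.36, SE 0.12, adjusted p = 0.0345 by edgeR). Its groups did not overlap, and the call did not hold in 4 of the 6 fits with a library removed. The log2 ratio of PSMB9 to TAP1 averaged -2.76 ± 0.241 in the antisense-labelled libraries and -4.82 ± 0.399 in the vector control (SD, n = 3 each), a difference of 2.06 (exact permutation p = 0.10, two-sided, the smallest possible; this pair was chosen after its values were seen). So these divergent neighbours passed the test in opposite directions. The 100 genes around PSMB9 in gene order had a median log2 fold change of -0.36, and 63 of them fell. TAP1, itself among these 100 genes, stood at that median, and PSMB9, which was left out of it, did not.

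The 250 bases before the start sites of this divergent pair, and of PSMB10, are shown because the 3 genes are all driven by interferon and had unlike values here. Capitals mark matches, on either strand, to TGACNNNGC (the antioxidant response element core, bound by NRF1 and NRF2), to the interferon-stimulated response element (ISRE) core, GAAA before and after any 2 bases, and TTCNNNGAA (the gamma-activated site core). Sequences are from RefSeq (GRCh38.p14).
PSMB9, chr6:32853942-32854191, plus strand: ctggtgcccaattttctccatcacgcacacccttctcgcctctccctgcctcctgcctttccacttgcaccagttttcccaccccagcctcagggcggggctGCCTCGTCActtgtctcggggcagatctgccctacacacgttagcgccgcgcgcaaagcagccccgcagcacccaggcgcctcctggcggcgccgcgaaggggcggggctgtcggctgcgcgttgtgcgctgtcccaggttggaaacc
TAP1, chr6:32853705-32853954, minus strand: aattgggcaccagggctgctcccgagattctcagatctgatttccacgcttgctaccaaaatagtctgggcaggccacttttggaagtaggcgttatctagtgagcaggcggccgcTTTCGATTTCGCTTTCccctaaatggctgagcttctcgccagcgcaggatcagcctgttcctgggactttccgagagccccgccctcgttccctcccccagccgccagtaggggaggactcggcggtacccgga
PSMB10, chr16:67936851-67937100, minus strand: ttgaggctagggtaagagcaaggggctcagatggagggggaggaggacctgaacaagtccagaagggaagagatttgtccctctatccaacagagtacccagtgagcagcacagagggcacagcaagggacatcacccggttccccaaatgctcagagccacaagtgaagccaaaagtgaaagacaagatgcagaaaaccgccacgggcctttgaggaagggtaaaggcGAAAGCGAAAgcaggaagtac
The PSMB9 window held a TGACNNNGC match at position -148 (leftmost base, counted back from the start site) and neither the ISRE core nor TTCNNNGAA. The TAP1 window held overlapping matches to the ISRE core at -134 and -128, which lie between both start sites but beyond the 250 bases taken for PSMB9, and the PSMB10 window held the ISRE core at -21. The 250 bases upstream of the PSMB8 starts listed held no ISRE core, which PSMB8 had only in the window taken to 50 bases past a start, and TTCNNNGAA at -65 of 1 of them. A second listed TAP1 start, not shown, had TTCNNNGAA at -189 and no ISRE core in its 250 bases. A match describes letters only, and no match says nothing about binding.

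Across 51 promoter windows of 42 members (250 bases before to 50 after the start), TGACNNNGC was found in 29.4%, against 13.3% of all 35116 windows of this length. The ISRE core was found in 13.7% of the members' windows (7 of 51) against 3.57% of all, and TTCNNNGAA in 15.7% against 7.66%. CCAAT stood in 39.2% against 34.6%, and GGGCGG, the GC box bound by SP1, in 68.6% against 45.0%. All were searched on both strands, and matches could overlap. The windows of all genes were not matched to those of the members for base composition, and no difference was tested. The 15 members with TGACNNNGC fell into those called lower (PSMC5, PSMD3, PSMD5, PSME4), those called higher (PSMA4, PSMB9, PSMD9, PSME2) and those not called (PSMB3, PSMC4, PSMD1, PSMD12, PSME1, PSMG1, PSMG2). The 8 called of these 15 stand beside 22 of 46 tested members (47.8%) and 55.0% of all tested genes.

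Leukocytes carry immunoproteasomes constantly, so their markers are given beside PSMB9. PTPRC, the pan-leukocyte antigen CD45, had 0 counts in every library of both groups, and CD3E had 0 counts in the antisense-labelled libraries. The summed level of the 6 leukocyte markers ran between 30.4 and 31.5 CPM in the antisense-labelled libraries and between 24.4 and 26.0 CPM in the vector control. Of the 3 tested, LYZ rose (mean 25.4 CPM in the antisense-labelled libraries and 12.3 CPM in the vector control), CSF1R rose (3.23 CPM in the antisense-labelled libraries and 0.264 CPM in the vector control) and CD14 fell (2.46 CPM in the antisense-labelled libraries and 12.8 CPM in the vector control). Fibroblast markers summed to 31.3 to 34.9 CPM in the antisense-labelled libraries and 15.8 to 19.7 CPM in the vector control, with COL1A2 and DCN at 0. LUM rose most among them (18.1 CPM in the antisense-labelled libraries and 0.133 CPM in the vector control, log2 fold change 7.12), COL3A1 also rose, PDGFRB fell and COL1A1 did not pass. Endothelial markers summed to 2.39 to 2.67 CPM in the antisense-labelled libraries and 0.833 to 1.42 CPM in the vector control. CDH5 and KDR stood at 0, and both tested ones rose (PECAM1 by 1.01 and VWF by 2.85 on the log2 scale, SE 0.27 and 0.87). VWF rested on 10, 16 and 34 counts in antisense-labelled libraries 2, 3 and 4, against 8, 0 and 0 in the vector control. The part of these markers in the PSMB9 result was not tested.

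The ATPases of the 19S base, which thread substrates into the core, were mostly uncalled. PSMC5 fell, with 194, 191 and 179.7 CPM in the antisense-labelled libraries, against 244, 219 and 256 CPM in the vector control (-0.35, SE 0.08, adjusted p = 0.00459 by edgeR). PSMC3 fell by 0.23 (SE 0.08, adjusted p = 0.0423 by edgeR), which did not hold in 4 of the 6 fits with a library removed. PSMC2 and PSMC4 were higher in all 3 antisense-labelled libraries than in any vector control library but did not pass (0.12 and 0.14). PSMC1 and PSMC6 overlapped between the groups (-0.06 and -0.08).

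Of the non-ATPases of the base, PSMD4, a ubiquitin receptor, and PSMD2, the scaffold that also docks shuttles, fell. PSMD4 had 180.4, 172 and 156 CPM in the antisense-labelled libraries, against 232, 192 and 236 CPM in the vector control (-0.38, SE 0.10). PSMD2, the member with the highest counts, had 774, 672 and 635 CPM in the antisense-labelled libraries, against 818, 801 and 927 CPM in the vector control (-0.29, SE 0.09), and its call was lost in 3 of 6 fits that left out a library (largest adjusted p 0.0708). In both genes the groups did not overlap. PSMD1, the other large scaffold, did not pass (0.06, SE 0.06).

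In the lid, which cuts ubiquitin chains off the substrate, PSMD7 rose and PSMD3, PSMD11 and PSMD14 fell. PSMD7, the partner of the deubiquitinase, had 300.4, 287 and 285 CPM in the antisense-labelled libraries, against 251, 214 and 233 CPM in the vector control (0.32, SE 0.08, adjusted p = 0.00622 by edgeR). PSMD14, the deubiquitinase itself, averaged 144 ± 7.26 CPM in the antisense-labelled libraries and 164 ± 8.59 CPM in the vector control (SD, n = 3 each; -0.19, SE 0.07, adjusted p = 0.0492 by edgeR). That fall stood at the threshold and was lost in 10 of 12 alternatives, among them every other scaling and filter tried. PSMD11, a scaffold of the lid, had 231, 221 and 230.0 CPM in the antisense-labelled libraries, against 275, 291 and 276 CPM in the vector control (-0.30, SE 0.06) and kept its call throughout. PSMD3 fell by 0.32 (SE 0.09), lost without antisense-labelled library 4 or vector control library 4. PSMD6, PSMD8, PSMD12 and PSMD13 did not pass and had log2 fold changes between -0.12 and 0.06.

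Activators that cap the core in place of 19S did not all go one way. PSME1 and PSME2 are the alternating subunits of one ring activator, induced by interferon-gamma. PSME2 had 108, 105 and 103 CPM in the antisense-labelled libraries, against 91.7, 77.9 and 91.1 CPM in the vector control (0.28, SE 0.08, adjusted p = 0.0167 by edgeR), and did not pass without antisense-labelled library 2. PSME1 had 85.5, 74.0 and 76.8 CPM in the antisense-labelled libraries, against 92.9, 81.8 and 96.4 CPM in the vector control (-0.20, SE 0.09, adjusted p = 0.0834 by edgeR). PSME2 did not overlap between the groups and PSME1 did. The log2 ratio of PSME2 to PSME1 was 0.34, 0.50 and 0.43 in the antisense-labelled libraries, against -0.02, -0.07 and -0.08 in the vector control, a difference of 0.48 (exact permutation p = 0.10, two-sided, the smallest possible; chosen after values were seen).

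The upstream windows of this pair, which are near neighbours on chromosome 14, are shown with the same capitals.
PSME2, chr14:24146611-24146860, minus strand: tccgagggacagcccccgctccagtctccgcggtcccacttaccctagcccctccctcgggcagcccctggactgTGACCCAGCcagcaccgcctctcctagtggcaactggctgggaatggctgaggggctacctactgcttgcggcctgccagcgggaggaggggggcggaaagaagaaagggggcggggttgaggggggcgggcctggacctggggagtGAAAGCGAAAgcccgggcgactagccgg
PSME1, chr14:24135944-24136193, plus strand: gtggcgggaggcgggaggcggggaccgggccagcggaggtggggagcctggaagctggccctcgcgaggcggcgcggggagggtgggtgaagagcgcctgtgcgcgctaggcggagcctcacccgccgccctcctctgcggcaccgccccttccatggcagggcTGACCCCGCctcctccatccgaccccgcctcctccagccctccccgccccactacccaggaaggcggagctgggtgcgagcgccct
In these 250 bases TGACNNNGC matched in both, at -175 in PSME2 and at -86 in PSME1, and the ISRE core matched in PSME2 at -28. In PSME1 the ISRE core matched only when the window was taken to 50 bases past the start.

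**Figure D3:**
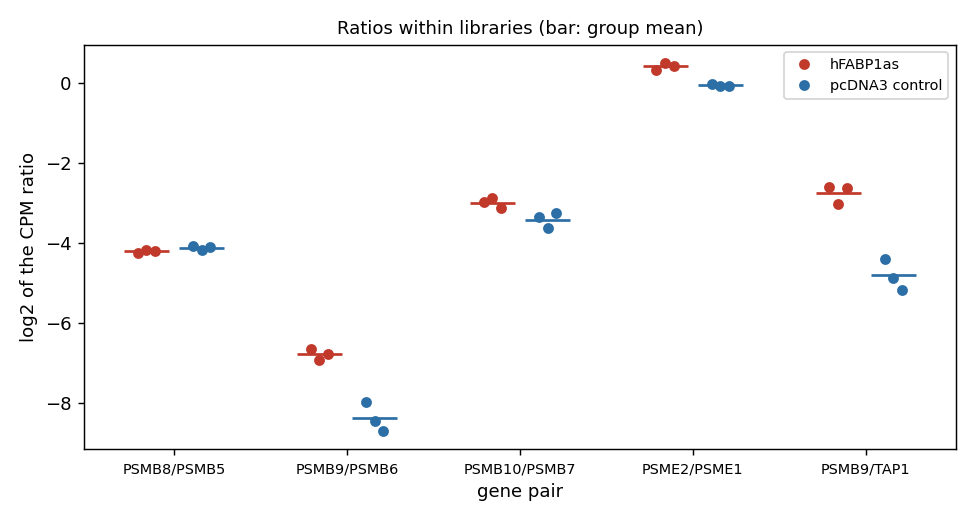
Log2 ratio of CPM within each library for the catalytic pairs, the PSME2 and PSME1 pair and the PSMB9 and TAP1 pair, antisense-labelled libraries left of vector control, with bars at group means. The PSMB9 ratios differ most, by 1.60 against PSMB6 and by 2.06 against TAP1.

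PSME4, a single-chain activator linked to histone breakdown, had 109, 105 and 124 CPM in the antisense-labelled libraries, against 159, 171 and 158 CPM in the vector control. Its log2 fold change of -0.53 (SE 0.08, adjusted p = 0.000579 by edgeR) was the lowest of all tested members, and the groups did not overlap. PSMF1, an inhibitor of the core, had 156, 146 and 151 CPM in the antisense-labelled libraries, against 175, 174 and 186 CPM in the vector control (-0.24, SE 0.07). The groups did not overlap, and the call was lost without antisense-labelled library 3 and in the fit that blocked libraries by header number. PSME3, the nuclear activator, did not pass (-0.09, SE 0.10).

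Assembly chaperones held both a large rise and a large fall. PSMD9, which guides the assembly of the 19S base, had 56.2, 49.2 and 44.8 CPM in the antisense-labelled libraries, against 32.9, 29.5 and 33.1 CPM in the vector control (0.65, SE 0.10, adjusted p = 0.000604 by edgeR). Every antisense-labelled library lay above every vector control library. Of the other base chaperones, PSMD5 fell by 0.29 (SE 0.09) and PSMD10 did not pass (0.18, SE 0.08). The PSMD5 call was lost without antisense-labelled library 2 or 3 and in the fit that blocked libraries by header number. Among chaperones of the core, PSMG3 had 53.7, 53.2 and 49.0 CPM in the antisense-labelled libraries, against 44.0, 35.0 and 41.6 CPM in the vector control (0.37, SE 0.10). Its partner PSMG4 had 15.4, 14.3 and 11.9 CPM in the antisense-labelled libraries, against 19.8, 17.3 and 20.1 CPM in the vector control (-0.46, SE 0.11). Neither gene overlapped between the groups. PSMG1 and PSMG2, which form the other chaperone pair, did not pass (0.06 and 0.16).

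Antisense genes named for members were counted too, and without stated strand use their reads and those of the member cannot be told apart. PSMD5-AS1 averaged 5.14 ± 0.323 CPM in the antisense-labelled libraries and 8.41 ± 0.932 CPM in the vector control (SD, n = 3 each) and fell with PSMD5. PSMA3-AS1 averaged 22.4 ± 3.11 CPM in the antisense-labelled libraries and 23.3 ± 2.40 CPM in the vector control, and neither it nor PSMG3-AS1 or PSMD6-AS2 passed. PSMB8-AS1 was under 1 CPM in every library. The table held 0 proteasome pseudogenes, so reads from such copies were not counted apart, and levels of members with near-identical copies are uncertain to that extent.

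Most members had fold changes near those of the genes around them. For each member, the median log2 fold change was taken over up to 50 tested genes on either side in the RefSeq gene order, among genes whose average log2 CPM reached 3. For 12 members there were fewer than 100 such genes, down to 52 for PSMB1, with 65 for PSMG3 and 64 for PSMG4. This neighbour median had the same sign as the member in 37 of 46 cases, in 14 of the 15 members that fell and in 5 of the 7 that rose. In 34 of 46 members the log2 fold change was within 0.2 of the neighbour median. These counts were not taken over all tested genes, so no background stands beside them. The 46 members include 3 uncalled ones whose own sign flipped in some alternatives. PSMB2 (-0.52) lay among genes with a median of -0.45, of which 84 of 100 fell and 2 rose. PSMA7 (-0.38) lay among genes with a median of -0.46, PSMD4 (-0.38) and PSMB4 (-0.31) among genes at -0.35 and -0.36, and PSMD5 (-0.29) at -0.36. PSMD9 (0.65) lay among genes with a median of 0.33, of which 63 of 100 rose. Pearson's r across members was 0.38 (n = 46) and 0.73 without PSMB9 (n = 45). It is given as a description, since members share libraries and some share neighbours.

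Of the 22 called members, 7 differed from their neighbours by more than 0.2. PSMB9 rose by 1.65 where 63 of 100 neighbours fell and 4 rose (median -0.36), while PSMB8 beside it stood at -0.01. PSME2 (0.28, neighbours -0.10) rose and PSMD2 (-0.29, neighbours 0.04) fell against the sign around them. PSME4 (-0.53, neighbours -0.12), PSMG4 (-0.46, neighbours -0.18), PSMG3 (0.37, neighbours 0.02) and PSMD9 moved with the sign of their neighbours but further. PSMA5 (-0.13, neighbours -0.40) and PSMB7 (-0.16, neighbours -0.39), neither of which passed, stood above theirs.

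**Figure D4:**
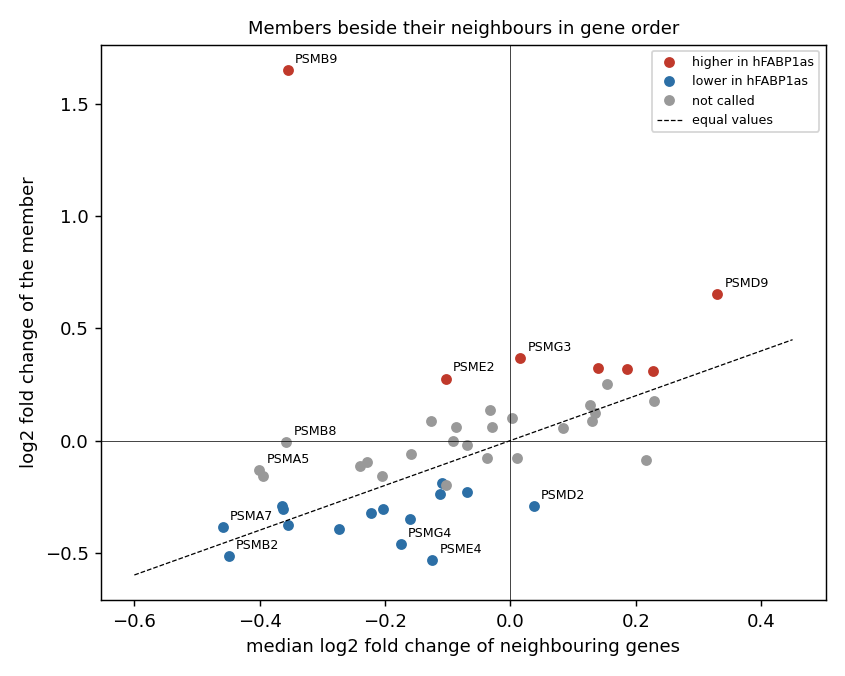
Log2 fold change of each of the 46 tested members against the median log2 fold change of its neighbours in gene order, with a dashed line at equal values. Most members lie near the line, and PSMB9 stands at 1.65 over a neighbour median of -0.36.

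Factors that join the proteasome but carry other symbols fell more often than they rose. Of 10 such genes, 7 fell (70.0%, background 27.3%) and 1 rose (10.0%, background 27.7%), so 80.0% were called, against a background of 55.0%. Neighbour medians were not taken for these genes. KIAA0368 (ECPAS), a scaffold that binds the 26S particle, had 101, 100.5 and 106 CPM in the antisense-labelled libraries, against 173, 184 and 170 CPM in the vector control (-0.78, SE 0.07). PAAF1, an ATPase-binding assembly factor, had 36.4, 33.3 and 31.8 CPM in the antisense-labelled libraries, against 55.1, 52.5 and 64.0 CPM in the vector control (-0.76, SE 0.10). POMP, the maturation factor that core assembly of both kinds needs, had 65.8, 56.0 and 68.3 CPM in the antisense-labelled libraries, against 87.1, 80.0 and 82.4 CPM in the vector control (-0.39, SE 0.09). In all 3 genes the groups did not overlap. ADRM1, the ubiquitin receptor of the cap, and AKIRIN2, which brings proteasomes into the nucleus, fell by 0.69 and 0.62 and are named after their values were seen. SEM1, a small lid subunit, rose by 0.27 (SE 0.08), lost without antisense-labelled library 2.

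Ubiquitin shuttles and unfolding factors went both ways, with 4 of 11 tested genes higher (36.4%, background 27.7%) and 5 lower (45.5%, background 27.3%). ZFAND5, a proteasome activator, and UBQLN2, a shuttle, rose by 0.63 and 0.43 (SE 0.08 and 0.07). UBQLN4 and NPLOC4, a cofactor of the unfoldase VCP, fell by 0.48 and 0.46 (SE 0.07 and 0.08).

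In the NRF1 route, NFE2L1 averaged 566 ± 22.9 CPM in the antisense-labelled libraries and 552 ± 11.0 CPM in the vector control (SD, n = 3 each) and did not pass (0.04, SE 0.06). Its relatives NFE2L3 and NFE2L2 rose by 0.85 and 0.49 (SE 0.07 and 0.12). NGLY1, the enzyme that activates NRF1 by removing its glycans, fell by 0.41 (SE 0.10). The other 5 of the 9 listed genes did not pass, so 33.3% of the list was called, against 55.0% of all tested genes.

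Genes of the interferon route did not move one way, with 4 of 11 higher and 4 lower (36.4% each, against a background of 27.7% higher and 27.3% lower). NLRC5, the transactivator of MHC class I genes, had 1.97, 1.43 and 1.71 CPM in the antisense-labelled libraries, against 0.0521, 0.0980 and 0.140 CPM in the vector control (4.15, SE 0.38, adjusted p = 2.87e-05 by edgeR). The groups were far apart, though both were low. IRF1, which carries the interferon-gamma signal to PSMB9 and TAP1, did not pass (-0.19, SE 0.07). SOCS1, a feedback inhibitor, rose by 0.86 (SE 0.29), lost in 5 of 6 fits that left out a library. IRF9 and JAK1 fell by 0.59 and 0.48 (SE 0.12 and 0.08).

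Of 12 genes of MHC class I processing, 3 rose (25.0%, background 27.7%) and 5 fell (41.7%, background 27.3%). B2M, the light chain of class I molecules, had 401, 391.9 and 399 CPM in the antisense-labelled libraries, against 203, 182 and 160 CPM in the vector control (1.13, SE 0.09), with no overlap. ERAP2, which trims peptides after the proteasome, rose by 0.93 (SE 0.09). HLA-C and HLA-B, heavy chain genes that share near-identical stretches so that reads could be split between them, fell by 0.57 and 0.47 (SE 0.14 each). The HLA-B call was lost in 3 of 6 fits that left out a library. HLA-B, HLA-C and TAP1 lie on chromosome 6, as does PSMB9, around which 63 of 100 neighbours fell (median -0.36). B2M lies on chromosome 15 and ERAP2 on chromosome 5. Neighbour medians were not taken for the genes of this list, and the part of position in their changes was not tested.

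**Figure D5:**
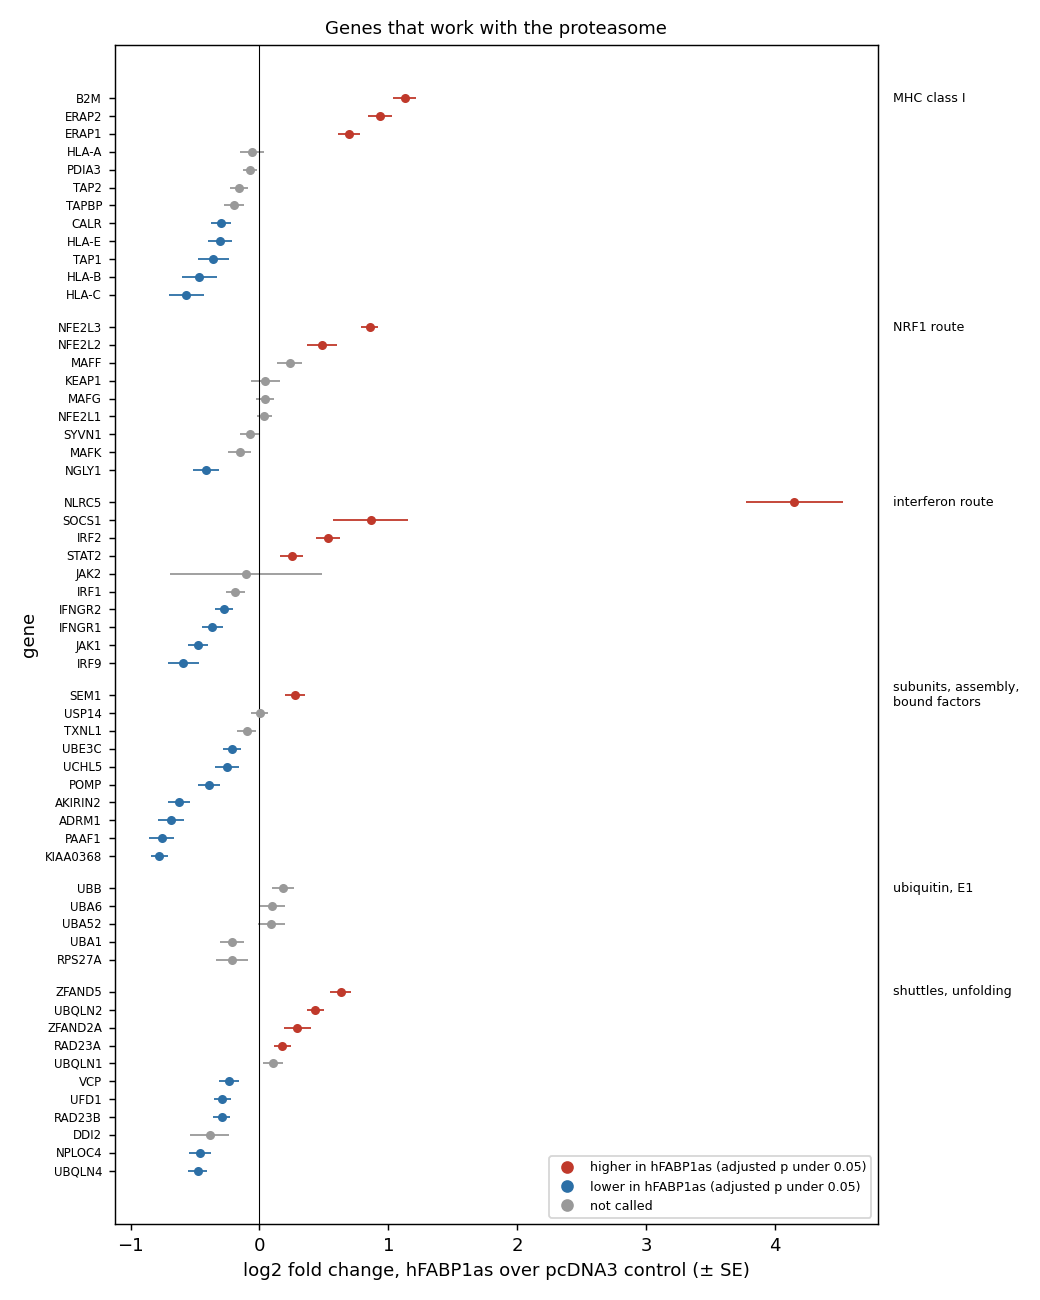
Log2 fold change, antisense-labelled over vector control, with its standard error, of tested genes that work with the proteasome, grouped by list. NLRC5 stands at 4.15, and 7 of the 10 genes for bound factors and assembly lie below 0 and passed the test.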

How the data were processed

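PolyA RNA of 6 Caco-2 libraries was measured. The submitters' processing notes name Trimmomatic 0.38, HISAT2 2.1.0, Bowtie2 2.3.4.1, StringTie 1.3.4d and GRCh37, without role or order. The deposited table gives raw read counts per gene, not normalized by the authors. Its 12 FPKM and TPM columns were not used. Columns were assigned to groups by header name, since header numbers (2, 3, 4) and replicate labels differ. The stranded kit is named in the labels, but how strand was used in counting is not stated there.

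Counts of all genes were filtered (filterByExpr), scaled by TMM and tested with edgeR 4.0.16 (glmQLFit, glmQLFTest, R 4.3.3), with Benjamini-Hochberg adjustment over 14640 genes, after the script was tested on simulated data. Standard errors are the absolute log2 fold change over the square root of F. Alternatives used DESeq2 1.42.0, other scalings and filters, left-out libraries and a block. Transcript lengths are medians of GENCODE transcripts matched by RefSeq accession, and isoform use could change them. Gene order covered 14604 tested genes. Ratios used scipy 1.17.1 (exact permutation).

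The members, gene lists, motifs and tests were chosen with earlier results of these data known. Named in full were the catalytic subunits, PSME1, PSME2, PSMF1, the 3 largest called rises and falls of members whose average log2 CPM reached 1, and up to 2 rises and 2 falls per list. Outside that rule, per-library values were also given for the members PSMA4, PSMA7, PSMB1, PSMC5, PSMD2, PSMD4, PSMD7 and PSMD11, which all passed the test. A few listed genes are not reported here.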

Additional observations from a re-analysis of the deposited data

How the results depend on the processing

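Over 12 alternatives (DESeq2's test and size factors, library size only, no filter, a filter of 1 CPM in 3 libraries, a replicate block, and leaving out each library), 13 of the 22 called members kept their call in all of them, and none reversed. Members called higher numbered 6 to 7 and lower 10 to 18 when a library was left out. The highest count came without vector control library 3, where PSMB3, PSMB7 and PSME1 also passed as falls. Partner genes called higher numbered 9 to 13 and lower 18 to 23 when a library was left out, against 14 and 23 with all libraries. The count of 9 came without antisense-labelled library 2. FABP1 did not pass in any. Leaving out a library kept the ratio differences at 1.43 to 1.79 for PSMB9 over PSMB6, 0.32 to 0.50 for PSMB10 over PSMB7 and -0.11 to -0.07 for PSMB8 over PSMB5. Without PSMB9, chosen after seeing the data, 6 members rose and 15 fell. Scalings moved the median of all genes by at most 0.01 on the log2 scale. The numbers in the headers gave no sign of pairing (correlations of deviations 0.03, -0.08 and -0.09 for equal numbers), but 3 libraries per group cannot exclude it. With the replicate block 7 members rose and 11 fell, and the sign-flip test of each ratio gave p = 0.25, the smallest possible, by an exact test. Depth limits PSMB9, which rests on 16 to 79 counts per library.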
